A study of Mus musculus with 7 samples.

Results

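The 10 genes described here are the Notch receptors Notch1, Notch2, Notch3 and Notch4, the ligands Dll4, Jag1 and Jag2, the DNA-binding factor Rbpj, and the target genes Hes1 and Hey1. They are 10 of the 50686 genes in each table and were picked by symbol, with their old against young values in microglia already known. The values that chose them are therefore given as a description and carry no test. The cells were lipid droplet-rich (Bodipy+) microglia, sorted by FACS as CD11b and CD45 positive cells from the forebrain of male C57BL/6 mice 4 days after a 45-min transient occlusion of the middle cerebral artery. The young group held 4 mice of 3 to 4 months (14C, 18C, 23C and 29C) and the old group 3 mice of 21 to 22 months (2posI, 3posI and 4posI), with 1 library per mouse. Mice of both ages were ischemic, with isoflurane anesthesia and buprenorphine analgesia at surgery, and the labels name no drug treatment as part of the design. No sham or Bodipy- sample was analysed here. The comparison of old with young describes how these cells differed between the age groups after stroke.

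Notch signalling works between touching cells. A Delta-like or Jagged ligand on 1 cell binds a Notch receptor on its neighbour, ADAM proteases and then γ-secretase cut the receptor, and the freed intracellular domain enters the nucleus. There it joins RBPJ and Mastermind coactivators and switches on repressors of the HES and HEY families. Without the intracellular domain RBPJ sits with corepressors. In the brain the pathway is best known for keeping neural progenitors undifferentiated and for patterning blood vessels, where Notch4 and Dll4 are known as endothelial genes.

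Libraries held 36574083 to 53002386 expected counts, the estimated number of reads per gene. Counts were scaled by the TMM method and are given as CPM (counts scaled to a common library total), with TPM, which also divides by transcript length, for levels between genes. The summed level of 9 microglial markers (Tmem119, P2ry12 and others) was 13140 to 21629 CPM in young and 7109 to 15571 CPM in old libraries, lowest in 3posI, and none of the 9 was at 0 in all libraries. The 5 monocyte markers summed to 1916 CPM in 3posI, 63.0 in 2posI and 99.6 in 4posI, against 14.8 to 74.7 CPM in young libraries. All 5 had higher fitted values in old mice. Ly6c2 and Plac8 were higher in every old than in every young library, and the other monocyte markers overlapped. Values without 3posI are given below where it matters, but Ly6c2 also stood at 15.3 CPM in 2posI and 9.59 in 4posI, against 0.95 to 2.86 CPM in young libraries. The share of ribosomal RNA genes in the counts was 1.62% to 2.84% for old and 3.52% to 4.24% for young libraries, so the ages did not overlap in it. The part of such library properties in the differences between ages was not tested, and the design cannot tell them from age.

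Promoter letters are shown for the receptor with the widest gap between ages and for the factor that carries the signal to DNA. RefSeq (GRCm38.p6) gave the 250 bases before the start site for 8 of the 10 genes; Hes1 and Hey1 had no entry. The core letters bound by RBPJ, TGGGAA, were searched on both strands and lie in 7094 of 32851 such windows, or 21.6%. Among the 8 they were found only before Rbpj itself, at 149 and 65 bases ahead of its upstream start site. The Notch4 window holds no match, its last 27 bases are in the first exon of GENCODE vM21, and the rest precedes the gene. Each Rbpj stretch of 30 bases lies inside the annotated Rbpj gene, which has transcripts that begin further upstream. Capitals mark the core, which in site 2 is read on the other strand.
Notch4, chr17:34564045-34564294, plus strand: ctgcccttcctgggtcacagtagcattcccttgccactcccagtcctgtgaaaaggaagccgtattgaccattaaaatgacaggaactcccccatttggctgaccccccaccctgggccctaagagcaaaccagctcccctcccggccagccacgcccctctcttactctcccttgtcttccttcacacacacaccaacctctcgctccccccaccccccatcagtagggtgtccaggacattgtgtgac
Rbpj site 1, chr5:53590185-53590214, plus strand: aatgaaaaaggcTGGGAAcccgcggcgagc
Rbpj site 2, chr5:53590269-53590298, plus strand: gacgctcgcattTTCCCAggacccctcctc

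All 10 genes passed the filter on low counts. In CPM the ages did not overlap for 2 of them, Notch4 and Hes1, both lower in every old library, against 17.7% of the 17559 genes tested. Of the 10, 7 had a lower and 3 a higher fitted value in old mice, with a median log2 fold change of -0.16, where the median of all genes tested was -0.01. The edgeR quasi-likelihood fit put 1 of the 10, Notch4, past an adjusted p of 0.05, as it did 0.803% of all genes, and nothing is read from that count because this contrast chose the genes.

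**Figure D1:**
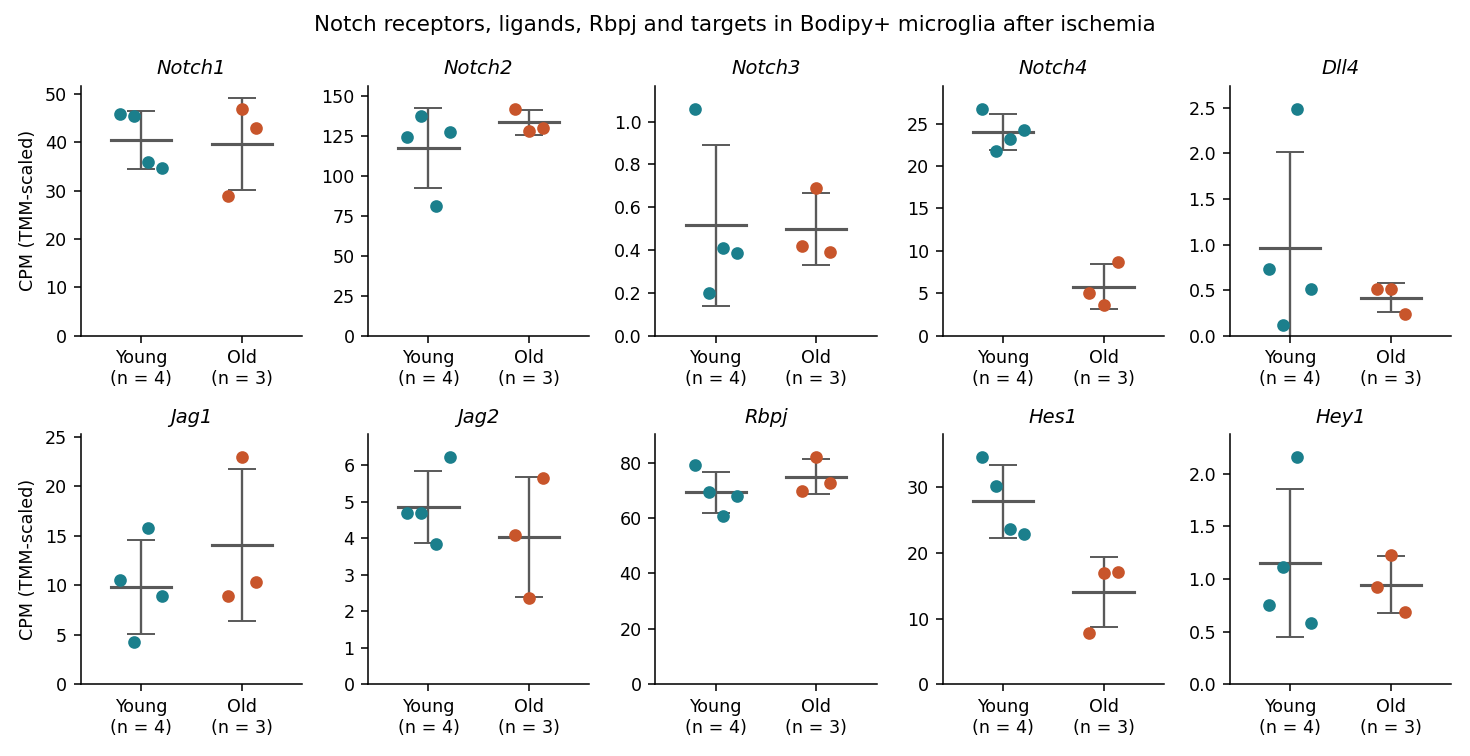
TMM-scaled CPM (vertical axes, each from 0) of the 10 genes in Bodipy+ microglia, with 1 point per mouse, the group mean as a horizontal line and the SD as the error bar, for 4 young and 3 old mice. The ages separate for Notch4 (21.8 to 26.8 CPM in young and 3.60 to 8.70 CPM in old) and for Hes1 (22.8 to 34.5 and 7.84 to 17.1 CPM), and overlap in the other 8 panels.

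Among the receptors, Notch4 (chr17:34564268-34588503 in GRCm38) differed most. Its level was 26.8 CPM in 14C, 21.8 in 18C, 23.1 in 23C and 24.3 in 29C, and 4.98 CPM in 2posI, 3.60 in 3posI and 8.70 in 4posI. The highest old library thus lay well under the lowest young library. The mean was 24.0 ± 2.11 CPM (SD, n = 4) in young and 5.76 ± 2.64 CPM (SD, n = 3) in old mice, a 4.16-fold lower level (log2 fold change -2.05, SE 0.29). The expected counts behind these values were 973 to 1236 in young and 141 to 403 in old libraries, all whole, so none was divided among genes.

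Leaving out each library in turn moved the log2 fold change of Notch4 between -2.49 (without 4posI) and -1.80 (without 3posI). It stayed past the threshold without 3posI or 4posI, and not without 14C, 18C, 23C, 29C or 2posI, in fits of fewer samples. Bulk libraries cannot tell fewer cells that express a gene from less RNA per cell.

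The size of the Notch4 difference depended on the length that RSEM assigned to it. The effective length, a mean over the transcripts to which reads were assigned, was 3212 to 3511 bases in young libraries, 3052 in 4posI, 2720 in 3posI and 1111 in 2posI. Of the 12 transcripts listed for Notch4, GENCODE vM21 has 2 longer than 5000 bases, the longest of 6591, and 10 of 247 to 804 bases. Only the longest is typed there as protein-coding. The 10 short ones are typed as retained intron, processed transcript or nonsense-mediated decay. In TPM the levels were 11.2, 8.93, 10.2 and 9.86 in 14C, 18C, 23C and 29C, and 5.48, 1.68 and 4.07 in 2posI, 3posI and 4posI. The ages were still apart, at a 2.68-fold lower mean (10.0 ± 0.92 TPM, n = 4, and 3.74 ± 1.92 TPM, n = 3, SD). With the effective length as an offset in the count fit, the log2 fold change was -1.33 (SE 0.35), and Notch4 was no longer past the threshold. The next gene on the same strand, Gpsm3, begins 1303 bases downstream, and its log2 fold change was -0.12.

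**Figure D2:**
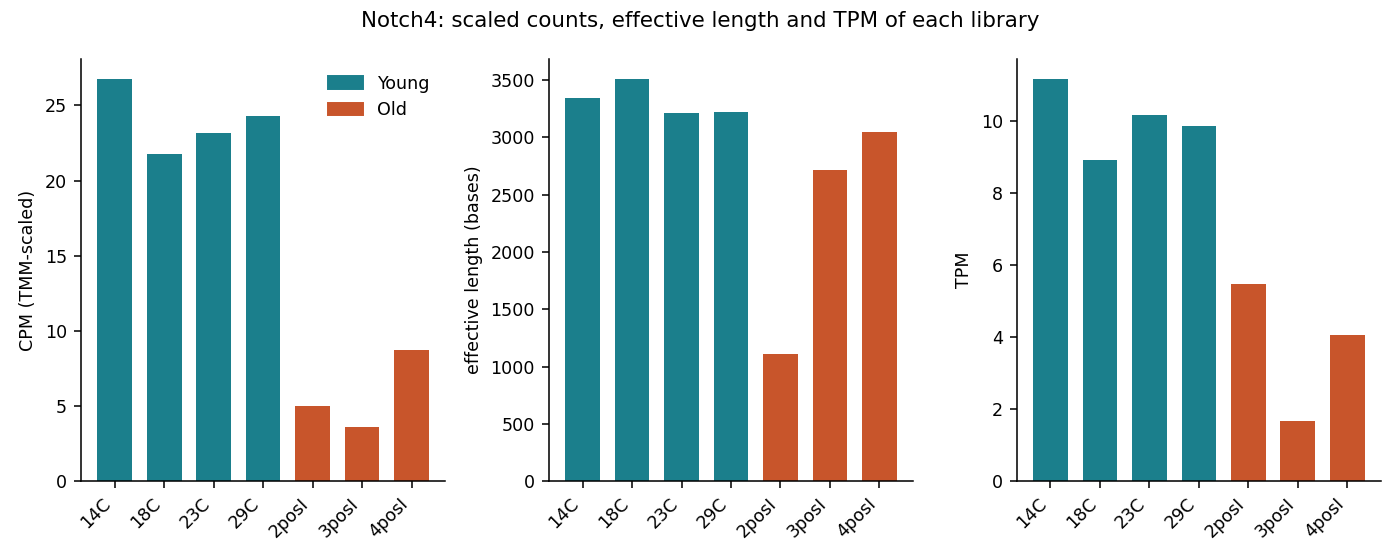
Notch4 in each of the 7 libraries as TMM-scaled CPM, effective length in bases and TPM (bars from 0, 1 bar per mouse). The old libraries are lowest in CPM and in TPM, and the effective length of 2posI, 1111 bases, is the shortest of the 7.

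Notch2 (chr3:98013527-98150361) was the receptor with the highest level, and its ages overlapped. It stood at 124, 137, 81.0 and 128 CPM in 14C, 18C, 23C and 29C, and at 142, 128 and 130 CPM in 2posI, 3posI and 4posI. The low value of 23C set the young mean apart, and the log2 fold change of 0.18 (SE 0.18) became 0.04 without that library.

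Notch1 (chr2:26457903-26516663) differed by less than its spread. It measured 45.9, 45.5, 35.9 and 34.8 CPM in 14C, 18C, 23C and 29C, and 28.9, 47.0 and 43.0 CPM in 2posI, 3posI and 4posI. The highest and the lowest library were both old. Its log2 fold change was -0.03 (SE 0.19), and it turned to 0.15 without 2posI. Expected counts of Notch1 and Notch2 were not whole in any library, so reads were divided between these genes and others. The antisense gene Gm13568, which overlaps Notch1, held 38.3 to 100.5 expected counts, and the protocol does not mark strand.

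Notch3 (chr17:32120820-32166852), best known from mural cells of vessels, was close to undetected. It had 9 to 49 expected counts in young and 14 to 27 in old libraries, or 0.20 to 1.06 and 0.39 to 0.69 CPM. At this depth no difference between ages was detectable, and the log2 fold change of -0.05 (SE 0.62) became 0.58 without 14C.

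The make-up of the receptor pool was read in TPM, and so rests on the lengths that RSEM assigned. For Notch4 the effective length was 3212 to 3511 bases in young libraries and 1111 in 2posI, while its 1 protein-coding transcript has 6591 bases. The TPM of Notch4 therefore takes in short transcripts not typed as protein-coding, and the part of the coding transcript was not measured. In CPM, which is not divided by length, Notch1 was above Notch4 in every library. Of the summed TPM of the 4 receptors, Notch4 took 31.7%, 25.3%, 37.9% and 31.8% in 14C, 18C, 23C and 29C, and 20.9%, 6.95% and 14.2% in 2posI, 3posI and 4posI. The share of Notch2 was 62.2% to 64.5% in the old against 40.9% to 53.6% in the young libraries. So the ages were apart in both shares, in opposite directions, which shares of 1 sum must balance. The summed receptor TPM was 26.9 to 35.3 in young and 24.2 to 28.6 in old libraries, which overlap.

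The ligands were low in both ages and their ages overlapped. Jag1 (chr2:137081456-137116644), a Jagged ligand, gave 10.6, 4.25, 15.7 and 8.90 CPM in 14C, 18C, 23C and 29C, and 8.94, 22.9 and 10.3 CPM in 2posI, 3posI and 4posI. The 1 high old value was that of 3posI, and the log2 fold change of 0.51 (SE 0.45) became -0.04 without it. Jag2 (chr12:112907819-112929776) gave 4.68, 4.68, 3.84 and 6.22 CPM in the young and 4.08, 2.35 and 5.66 CPM in the old libraries, in the same order. Here 3posI was lowest, and the log2 fold change of -0.27 (SE 0.32) became 0.01 without it.

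Dll4 (chr2:119325784-119335962), the Delta-like ligand of sprouting vessels, had 34, 5, 127 and 24 expected counts in 14C, 18C, 23C and 29C, and 17, 20 and 11 in 2posI, 3posI and 4posI. That is 0.11 to 2.49 CPM in young and 0.24 to 0.51 CPM in old libraries. The young range enclosed all old values. Its log2 fold change of -1.21 (SE 0.89) rested on 23C and was -0.13 without it. The library 23C also had the highest summed endothelial (173 CPM) and fibroblast (222 CPM) markers. The part of such cells in the values of Dll4 was not tested.

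Rbpj (chr5:53466152-53657362) gave 79.0, 69.4, 60.9 and 67.9 CPM in 14C, 18C, 23C and 29C, and 69.8, 82.0 and 72.8 CPM in 2posI, 3posI and 4posI. These overlap, with a log2 fold change of 0.11 (SE 0.12). In TPM the direction turned: young libraries had 25.4, 22.7, 23.1 and 20.7 TPM and old libraries 16.9, 20.4 and 20.4 TPM, each old value below each young one. The effective length was 3722 to 4404 bases in young and 5065 to 5114 in old libraries. With that length as an offset the log2 fold change was -0.16 (SE 0.12), and on log2(TPM + 0.1) the difference was -0.26. Expected counts of Rbpj were whole in 2 of the 7 libraries, so reads were also divided between genes.

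Hes1 (chr16:30064384-30067796), the repressor that Notch activates in many tissues, was the other member whose ages did not overlap. It measured 34.5, 30.2, 23.7 and 22.8 CPM in 14C, 18C, 23C and 29C, and 7.84, 17.0 and 17.1 CPM in 2posI, 3posI and 4posI. The lowest young library lay above the highest old one, and 2posI was well below the other two. The means were 27.8 ± 5.58 CPM (SD, n = 4) and 14.0 ± 5.33 CPM (SD, n = 3), a 1.99-fold lower level at the older age (log2 fold change -0.99, SE 0.29). In TPM they were 28.4 ± 6.80 and 13.6 ± 6.08, again apart. Leaving out each library moved the log2 fold change between -1.17 and -0.70, the latter without 2posI. Per unit of Rbpj, Hes1 stood at 0.336 to 0.437 in young and 0.112 to 0.235 in old libraries, as ratios of CPM.

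Hey1 (chr3:8663359-8667256), a HEY repressor prominent in vessels, was measured at 0.76, 1.12, 2.16 and 0.58 CPM in 14C, 18C, 23C and 29C, and at 0.92, 1.23 and 0.69 CPM in 2posI, 3posI and 4posI. Its ages overlapped, with 27 to 110 expected counts behind them. The log2 fold change of -0.29 (SE 0.51) turned to 0.21 without 23C.

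Ordered by mean TPM over the 7 libraries, Hes1 (22.1) and Rbpj (21.4) led, followed by Notch2 (16.1), Notch4 (7.34), Notch1 (6.11), Jag1 (2.84), Jag2 (1.53), Hey1 (0.644), Dll4 (0.27) and Notch3 (0.0857). Each gene's range over libraries overlapped that of the next. In TPM Notch4 was above Notch1 in each young library. In old mice its TPM was above that of Notch1 in 2posI (5.48 against 3.99 TPM) and below it in 3posI (1.68 against 6.79) and 4posI (4.07 against 6.68). In CPM Notch4 was below Notch1 in every library, so this order depends on the assigned lengths.

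**Figure D3:**
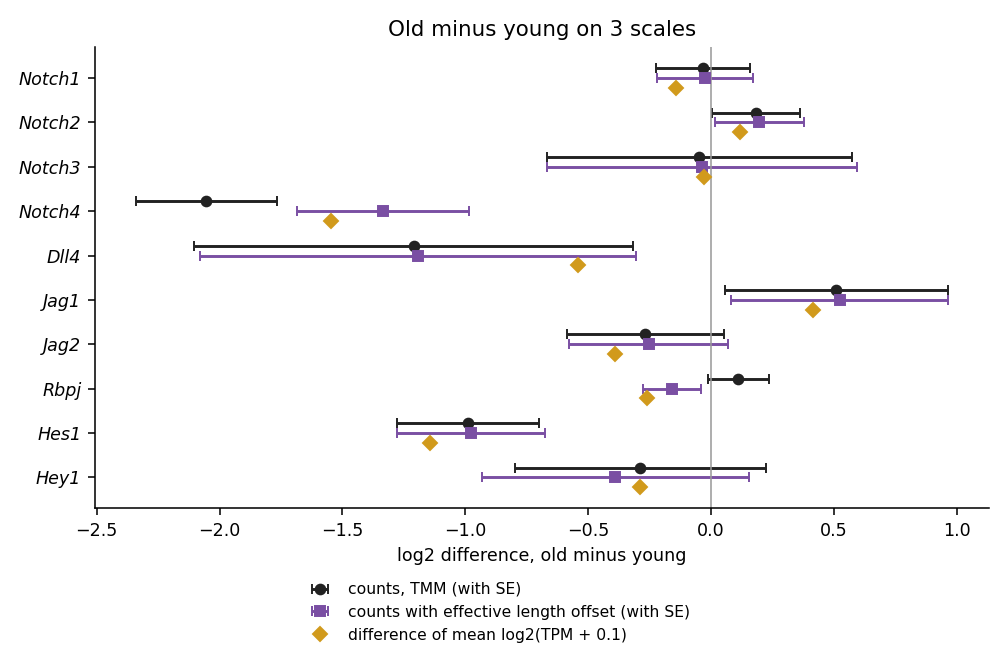
Old minus young difference on the log2 scale for each gene, from the count fit (circles, with SE), from the same fit with effective length as an offset (squares, with SE), and between mean log2(TPM + 0.1) values (diamonds, no error drawn). Notch4 moves from -2.05 to -1.33 and -1.55, Rbpj changes sign, and Hes1 stays between -1.14 and -0.98.

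Endothelial markers were read in the same libraries, because Notch4, Dll4 and Hey1 are also vessel genes. The 12 endothelial markers summed to 89.6 to 173 CPM in young and 67.2 to 106 CPM in old libraries, which overlap. Of the 12, 10 had lower fitted values in old mice and 1, the transporter Slco1a4, fell past the threshold (edgeR, adjusted p = 0.0280). None of them was at 0 in all libraries. Per 100 CPM of these markers, Notch4 stood at 13.4 to 24.3 CPM in young and 3.40 to 13.0 CPM in old libraries, so the ages remained apart, narrowly. Per 10000 CPM of microglial markers it stood at 10.1 to 17.6 CPM in young and 3.20 to 5.93 CPM in old libraries. The cadherin Cdh5, an endothelial defining gene, stood at 0.865 ± 0.413 TPM in young (n = 4) and 0.697 ± 0.193 TPM in old mice (n = 3, SD). In TPM, Notch4 was 7.49 to 25.5 times Cdh5 in young and 1.83 to 9.45 times Cdh5 in old libraries, which overlap. Only 2posI (9.45), where the effective length of Notch4 was 1111 bases, lay within the young range. In 3posI (1.83) and 4posI (6.90) the ratio was below that of every young library. Pecam1 was at 7.83 TPM in young and 4.58 TPM in old mice. Of the 6 arterial endothelial markers, 5 were tested, 4 had lower fitted values, and their sum was 5.77 to 8.69 CPM in young and 3.25 to 6.11 CPM in old libraries. The part of endothelial RNA in the difference of Notch4 was not tested.

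Hes1 did not keep its separation against these sums. Per 100 CPM of endothelial markers it stood at 13.7 to 33.7 CPM in young and 8.12 to 25.5 CPM in old libraries. Per 10000 CPM of microglial markers it stood at 12.1 to 20.1 CPM in young and 5.03 to 23.9 CPM in old libraries. Here 3posI, the library of the low microglial and high monocyte sums, was on top. In 2posI and 4posI it was 5.03 and 11.7 CPM, below every young library, the latter narrowly. Against the endothelial sum 4posI, at 25.5 CPM, also lay within the young range. Without 3posI its log2 fold change was -1.15. The summed markers of T cells and of dendritic cells were higher in every old than in every young library, at 1.22 to 3.25 against 0.237 to 0.569 CPM and 8.77 to 15.3 against 3.96 to 6.86 CPM. Fitted values were higher for 5 of 5 T cell markers and for 3 of 5 dendritic markers, with Zbtb46 and Xcr1 lower, and the defining T cell genes Cd3e, Cd3d and Cd3g each had an old library with 0 counts. Fibroblast markers summed to 27.2 to 222 CPM in young and 6.15 to 31.5 CPM in old libraries. Ependymal markers summed to 92.8 to 249 and 106 to 226 CPM. Both sums overlap, with lower fitted values in old mice for 5 of 5 fibroblast and 4 of 4 ependymal markers. Sums of neutrophil and border macrophage markers also overlap, with higher fitted values for 7 of 7 and 5 of 5. The part of any of these cells in the values of Hes1 was not tested.

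**Figure D4:**
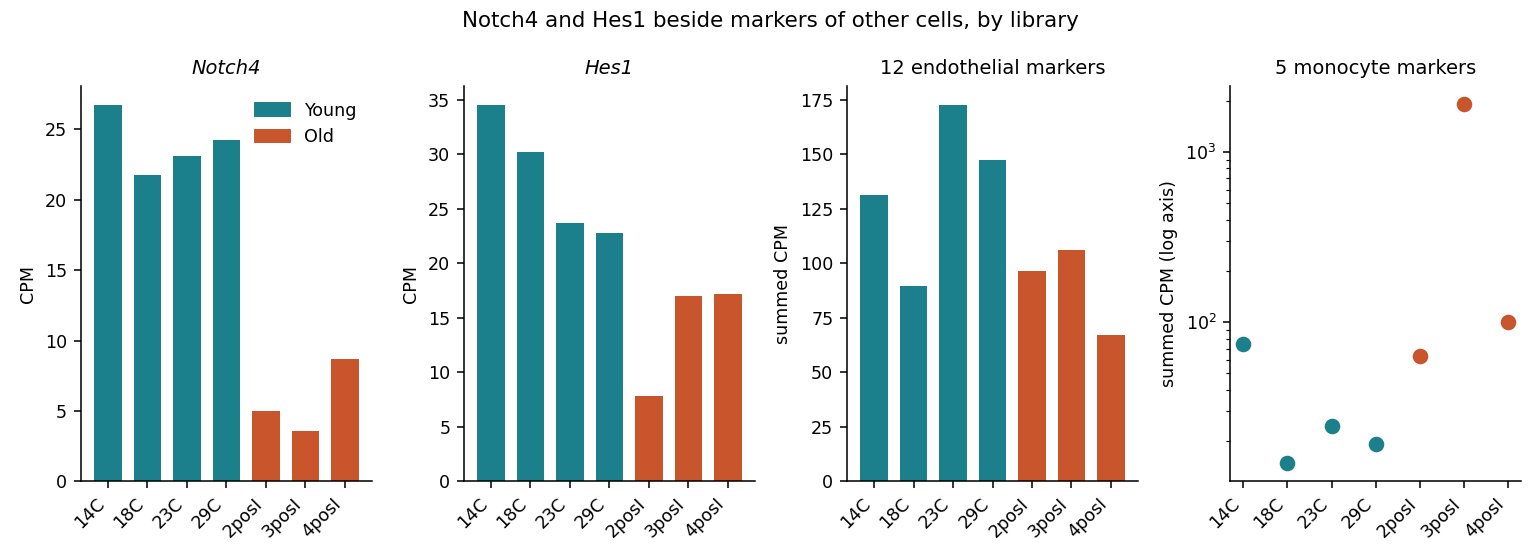
Notch4 and Hes1 (CPM), the sum of 12 endothelial markers (CPM) and the sum of 5 monocyte markers (CPM, log axis) in each of the 7 libraries, 1 bar or point per mouse. Endothelial sums overlap between ages (89.6 to 173 and 67.2 to 106 CPM), and the monocyte sum of 3posI, 1916 CPM, is the highest.

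Beyond the members, 66 other genes of the pathway were grouped by role, and 60 were tested. Dtx3 fell and Ncor1 rose in old mice, and the other 58 did not pass the test (edgeR, adjusted over all 17559 genes). The 2 are 3.33% of the 60, against 0.803% of all genes tested. Fitted values were higher for 28 and lower for 32 genes, with a median log2 fold change of -0.05. At an unadjusted p under 0.05 stood 18 genes (12 higher, 6 lower), or 30.0% against 18.9% of all genes tested, and the ages were apart in CPM for 17, or 28.3% against 17.7%. These shares are a description and were not tested, and nothing is read from them because the lists were chosen with earlier results of these data known.

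**Figure D5:**
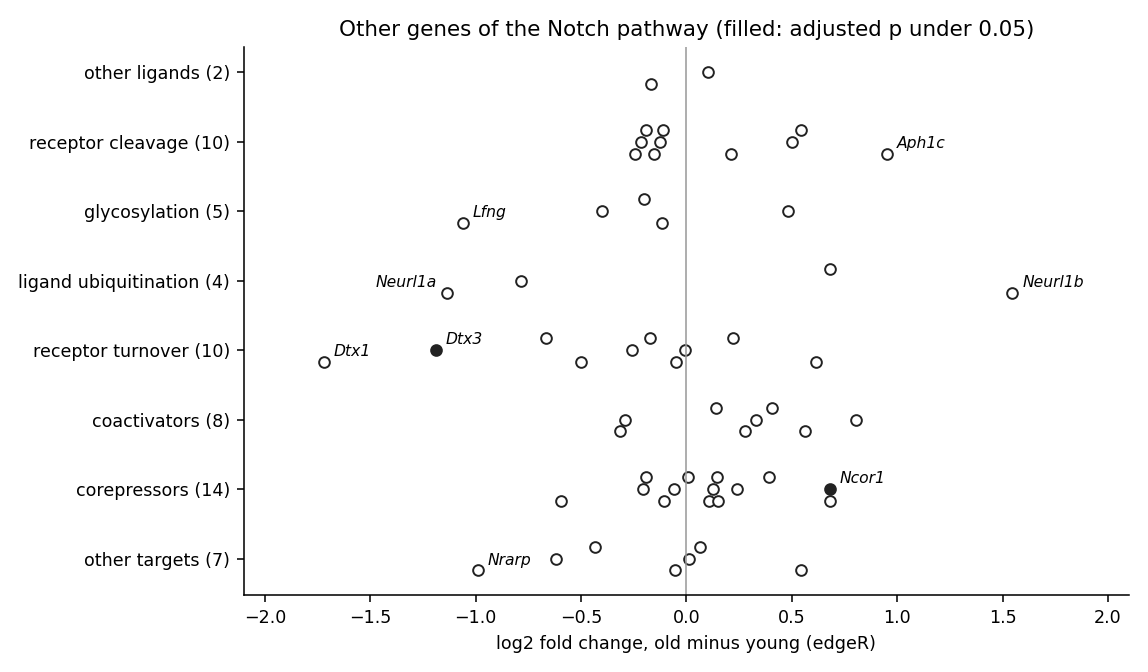
Log2 fold change, old minus young, of the 60 tested genes in 8 roles (number of genes in brackets), with filled circles for an adjusted p under 0.05. Dtx3 at -1.19 and Ncor1 at 0.68 are the filled circles; names are given for these and for genes beyond 0.9 in size.

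Dtx3, a member of the Deltex family of ubiquitin ligases that act on Notch receptors, measured 44.2, 50.8, 36.9 and 43.6 CPM in 14C, 18C, 23C and 29C, and 15.3, 18.0 and 24.5 CPM in 2posI, 3posI and 4posI. The ages were well apart. It fell by 1.19 on the log2 scale (SE 0.19, edgeR adjusted p = 0.0375), and kept its call in all 8 other fits on the 7 libraries. With 1 library left out it kept the call without 4posI and lost it without any of the other 6. Of the 10 genes of receptor turnover, 1 fell and 9 did not pass, where 0.803% of all genes tested passed. Fbxw7, which marks the intracellular domain for degradation, stood at 0.61 on the log2 scale (SE 0.20, adjusted p = 0.165), and at 0.11 (SE 0.51) with the effective length offset.

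Ncor1, a corepressor scaffold, measured 66.1, 58.7, 61.7 and 73.3 CPM in 14C, 18C, 23C and 29C, and 103, 102 and 108 CPM in 2posI, 3posI and 4posI. The old values lay close together above all young ones. It rose by 0.68 on the log2 scale (SE 0.11, edgeR adjusted p = 0.0421), and lost the call with the effective length offset, at 0.56, and without any 1 of the 7 libraries. Its expected counts were whole in none of the 7 libraries. Of the 14 corepressors 1 rose and 13 did not pass, where 0.803% of all genes tested passed. Tle1, of the Groucho family, came next at 0.68 (SE 0.22, adjusted p = 0.159).

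None of the 8 coactivators passed in the main edgeR fit, and 5 of them (4 higher, 1 lower) had an unadjusted p under 0.05 there, against 18.9% of all genes tested. The acetyltransferase Kat2b measured 7.38, 7.41, 6.14 and 7.57 CPM in young and 12.9, 11.6 and 12.7 CPM in old libraries, 0.80 higher on the log2 scale (SE 0.15, edgeR adjusted p = 0.0539). For Crebbp, the CBP acetyltransferase, it was 0.56 (SE 0.12, adjusted p = 0.0672). With the effective length offset Crebbp passed, at 1.49 (SE 0.13, edgeR adjusted p = 0.00700). Its mean effective length was 6893 bases in young and 3613 bases in old mice. The ages of both genes were apart.

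The 4 ligases that mark ligands for endocytosis split in direction, and none passed in the main edgeR fit. All 4 (2 higher, 2 lower) had an unadjusted p under 0.05 there, against 18.9% of all genes tested. The ages were apart in CPM for 3 of them, against 17.7%. Mib1 had 29.4 ± 3.50 CPM in young (n = 4) and 47.1 ± 6.39 CPM in old mice (n = 3, SD), a difference of 0.68 on the log2 scale (SE 0.14, edgeR adjusted p = 0.0669), and passed with the effective length offset at 0.74 (adjusted p = 0.0498). Neurl1b, at 0.801 to 2.06 CPM in young and 2.56 to 5.64 CPM in old libraries, had 1.55 (SE 0.41, adjusted p = 0.116). Neurl1a and Mib2 had lower fitted values, -1.14 and -0.79.

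None of the 5 glycosylation genes passed in the main edgeR fit. Lfng, the Fringe enzyme that alters which ligands a receptor answers to, measured 30.3, 33.2, 22.8 and 16.3 CPM in 14C, 18C, 23C and 29C, and 9.12, 14.0 and 13.8 CPM in 2posI, 3posI and 4posI. The ages were apart, by -1.06 on the log2 scale (SE 0.27, edgeR adjusted p = 0.101). Pofut1, which adds the fucose that Fringe extends, had 0.48 (SE 0.17, adjusted p = 0.179), and 0.15 (SE 0.22) with the effective length offset.

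None of the 10 genes that cut the receptor passed. The furin convertase Furin stood 0.54 higher on the log2 scale (SE 0.22, edgeR adjusted p = 0.236), and 0.26 (SE 0.18) higher without 3posI. The sheddase Adam17, at 214 ± 10.8 CPM in young (n = 4) and 181 ± 6.64 CPM in old mice (n = 3, SD), had -0.24 (SE 0.11, edgeR adjusted p = 0.275), and -0.42 (SE 0.11) with the effective length offset. Of the other 5 ligands, Dll3, Dlk1 and Dlk2 did not reach the count minimum, and Dll1 and Dner, both below 1 CPM in mean, had -0.17 (SE 0.44) and 0.10 (SE 0.83).

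Of the 10 genes listed as other targets, Hes2, Hes3 and Hey2 did not reach the count minimum and none of the remaining 7 passed. The HES and HEY genes among them were listed by family, and whether Notch induces each of them was not tested. Nrarp, a feedback inhibitor that Notch induces, had 2.99, 2.89, 1.92 and 2.95 CPM in 14C, 18C, 23C and 29C, and 1.43, 0.72 and 1.90 CPM in 2posI, 3posI and 4posI. The gap between the lowest young and the highest old library was small, and the log2 fold change was -0.99 (SE 0.38, edgeR adjusted p = 0.212). Ccnd1, the cell cycle gene cyclin D1, had 0.54 (SE 0.25, adjusted p = 0.276). Hes6 measured 34.3 ± 3.29 CPM in young (n = 4) and 34.6 ± 1.89 CPM in old mice (n = 3, SD), which differ by 0.01 on the log2 scale.

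For each member whose mean reached 1 CPM in either age, the genes of most similar pattern over the 7 libraries were sought among 12482 genes, by the root mean square difference of log2 CPM centred on each gene's mean. Nearest to Notch4 were 4930404N11Rik (0.257) and Plekhh3 (0.299), against a median of 1.15 over all genes compared. Nearest to Hes1 were the autophagy gene Atg9a (0.0990) and Dvl2 (0.145), a Dishevelled protein of Wnt signalling, against a median of 0.724. Notch2 lay nearest to Socs1 (0.0421), Notch1 to Filip1l (0.0673), Rbpj to Mtor (0.0562), Jag1 to Srxn1 (0.118), Jag2 to Kif15 (0.0927) and Hey1 to Slc38a6 (0.252). With 7 libraries and so many candidates, such likeness is a description of these libraries.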

How the data were processed

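Bulk RNA of Bodipy+ microglia from 4 young and 3 old mice was measured. The authors ran skewer to trim, STAR to map onto GRCm38, and RSEM to count genes of GENCODE m15 (STAR and RSEM versions: not given in the sources used here). As to units, the deposited expected counts are unnormalized estimated counts, and RSEM scaled the deposited TPM and FPKM values within each library. FPKM served for nothing here. Per the labels these were low-input, non-stranded libraries, and no molecular identifiers are named for them. The labels and the study's methods name different RNA extraction kits.

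Expected counts were rounded. A gene was kept if any library gave it more than 10, and dropping 614 sex-chromosomal and mitochondrial genes, as the study did, left 17559. TMM factors and a quasi-likelihood test with age as its 1 term came from edgeR 4.0.16 (R 4.3.3), and the Benjamini-Hochberg adjustment ran over all genes tested at a threshold of 0.05. Whole counts were called within 0.001. Alternatives were limma-voom (limma 3.58.1), DESeq2 1.42.0, RLE and upper-quartile factors, effective length as an offset, other filters, log2(TPM + 0.1), and each library left out. Coordinates came from GENCODE vM21, which held 50462 of the 50686 identifiers. On simulated data the code gave the right signs and median folds but recovered fewer of the changed genes than first required, and that requirement was then lowered.

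The 10 genes and all lists were chosen with earlier results of these data known. Named genes are the 10, pathway genes past the threshold and the 2 of smallest p in each list, the 2 of nearest pattern per member, and markers. Other genes of the pathway lists that are named, with the remaining single markers, were chosen after their values were seen. With 1 library per mouse, p-values measure the spread between mice. A marker of the microglial list is not reported here and is left out of its sum.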

Additional observations from a re-analysis of the deposited data

Results flagged for a closer look

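Among 26 groups of 4 young libraries examined, 2 held a library far from the others by Dixon's criterion, and chance gives about 1 in 20. In both it was 23C, on the low side. Kat2b stood at 6.14 CPM in 23C against 7.38 to 7.57 CPM in the other young libraries, a gap of 0.869 of the range. Nrarp stood at 1.92 CPM in 23C against 2.89 to 2.99 CPM, a gap of 0.905 of the range.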

How the results depend on the processing

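The median log2 fold change of the 10 genes, -0.16, lay between -0.29 and -0.10 over all alternatives. The count of other pathway genes past the threshold, 2, became 8 with DESeq2 (Dtx3, Ncor1, Lfng, Mib1, Neurl1a, Neurl1b, Crebbp and Kat2b) where the cause was not tested, 3 with the effective length offset (Dtx3, Mib1 and Crebbp) and 3 with filterByExpr (Dtx3, Ncor1 and Kat2b), and ranged from 0 to 1 with 1 library left out, in fits of fewer samples. DESeq2 called 1399 and edgeR 141 of the 17559 genes. Without filter on low counts 288 genes were called, with edgeR's filterByExpr 200 and with effective length as an offset 213; without 1 library it was 1 (14C, 18C or 2posI), 2 (29C), 14 (23C), 85 (4posI) or 159 (3posI). Of the named pathway genes Dll1 (-0.17) turned to 0.085 with the offset and lay between -0.31 and 0.10 with 1 library left out, and Dner (0.10) turned to -0.10 with limma-voom and lay between -0.48 and 0.86. Both are under 1 CPM, where depth limits any direction. Rbpj turned to -0.16 with the offset and -0.26 on log2(TPM + 0.1). No paired analysis was possible because the labels number the animals separately and pair no young with an old mouse.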
